A study of Homo sapiens and Mus musculus with 18 samples.

Results

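The genes described here are 33 human genes of autophagy and of the lysosome, taken from a written list of names and found by symbol among the 34505 gene rows of the human libraries. All 33 had a row, and all 33 passed the low-count filter in every fit. They comprise 5 proteins of the lysosomal membrane, 10 luminal hydrolases with their activator, 4 genes of the proton pump, 2 transcription factors, 4 genes of initiation and nucleation, 4 conjugation enzymes, and 4 genes for ATG8 proteins and a cargo receptor. The study sequenced RNA of pancreatic tumour lines with more or less keratin 17, a filament protein of epithelial cells written K17 here (gene KRT17). The series holds 18 libraries, and the 12 human ones are used here: 3 of L3.6 wild type for K17, 3 of L3.6 with a CRISPR-Cas9 knockout of K17, 3 of PANC-1 with an empty vector and 3 of PANC-1 overexpressing K17. L3.6 is labelled a pancreatic adenosquamous carcinoma line and PANC-1 a pancreatic ductal adenocarcinoma line, and all were grown in the same serum-containing medium. The labels do not say whether a group is 1 clone, what drives the K17 transgene, or whether replicates were separate cultures. The p-values therefore measure the spread between these libraries, which may be technical, and K17 status, clone and culture cannot be told apart. Differences are always given as high K17 minus low K17, that is wild type minus knockout in L3.6 and K17 minus empty vector in PANC-1.

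Macroautophagy encloses cell contents in a double membrane and delivers them to the lysosome, an acidic organelle where hydrolases break them down. Kinase and lipid kinase complexes start the membrane, conjugation enzymes attach ATG8 proteins to it, and receptors such as p62 tie cargo to those proteins. A proton pump acidifies the lysosome, membrane proteins protect it and export its products, and the related factors TFEB and TFE3 switch on many lysosomal genes through an E-box. Pancreatic ductal tumours are known for high basal autophagy and for expanded lysosomes.

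Library totals ran from 9485257 to 15476629 counts in L3.6 and from 59671178 to 70789559 in PANC-1. KRT17 had 1112 to 1654 counts in the L3.6 wild-type libraries and 175 to 204 in the knockout ones. In PANC-1 it had 8597 to 9884 counts in the K17 libraries and 0 to 2 in the empty vector ones, so each library matched its label. PANC-1 empty vector replicate 2 stood apart: genes of the mitochondrial genome took 18.8% of its counts, beside 9.88% to 10.8% for the remaining PANC-1 ones. It was more than 1.5-fold below both other empty vector libraries for 26.5% of the genes tested and more than 1.5-fold above them for 21.5%. PANC-1 is therefore described both with all 6 libraries and with the 5 that remain without it. The 4 squamous markers TP63, KRT5, DSC3 and KRT6A summed to 373 to 549.7 CPM in L3.6 (CPM is a count scaled to its library's total), although KRT6A itself had 0 in every L3.6 library. Macrophage markers, a cell type rich in lysosomes, summed to 3.48 to 8.24 CPM over the 8 genes in any library, with AIF1 at 0 in 3 of the 4 groups. In bulk RNA, fewer cells of a type and less RNA per cell cannot be told apart. Levels are compared only within a gene and a line, because some rows may hold just part of a gene's reads: LAMP1, the major lysosomal membrane protein, was at 3.87 to 9.39 CPM.

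Promoter windows from RefSeq (GRCh38.p14, 250 bases before to 50 after a start) were matched for 26 of the 33 genes, giving 32 windows. The E-box CACGTG, which reads the same on both strands, occurred in 8 of them and in 7.26% of all 35116 windows. Its extended form TCACGTGA, the core of the CLEAR element named for lysosomal genes, contains it and occurred in 6 windows (18.8%) against 0.98% of all windows. The genes with an E-box were ATG3, ATP6V0D1, CTSA, CTSD, GAA, LAMP1, MCOLN1 and NEU1. A match is only a run of letters and says nothing on binding. The 5 stretches that follow are shown to set E-boxes of genes that rose with K17 beside those of genes that did not pass the test. Capitals mark each E-box, and each line runs 5′ to 3′ on the gene's own strand. CTSD, NEU1 and GAA rose with K17 in PANC-1 once empty vector replicate 2 was left out, while LAMP1 and CTSA did not pass the test in either line.
CTSD (chr11:1763928-1764027, minus strand): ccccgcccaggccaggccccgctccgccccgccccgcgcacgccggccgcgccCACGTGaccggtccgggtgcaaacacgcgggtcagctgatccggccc
NEU1 (chr6:31862872-31862971, minus strand): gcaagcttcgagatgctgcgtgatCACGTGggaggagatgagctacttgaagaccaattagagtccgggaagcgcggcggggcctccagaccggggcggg
GAA (chr17:80101481-80101580, plus strand): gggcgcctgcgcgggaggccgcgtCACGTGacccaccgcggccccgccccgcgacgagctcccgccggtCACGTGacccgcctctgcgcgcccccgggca
LAMP1 (chr13:113297039-113297238, plus strand): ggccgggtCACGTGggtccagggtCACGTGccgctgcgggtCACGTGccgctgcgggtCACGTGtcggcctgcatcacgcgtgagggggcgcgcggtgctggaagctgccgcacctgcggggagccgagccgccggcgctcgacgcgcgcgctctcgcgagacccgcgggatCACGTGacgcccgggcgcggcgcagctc
CTSA (chr20:45891235-45891334, plus strand): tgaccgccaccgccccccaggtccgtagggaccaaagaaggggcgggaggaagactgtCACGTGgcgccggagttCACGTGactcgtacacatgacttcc
LAMP1 carried 6 E-boxes in its whole window, the most of any of the 26 genes, and ATG3, CTSA, GAA and MCOLN1 carried 2 each. Of the 6 genes with the extended form, GAA was the only one past the test in either line. Of all 33 genes, 4 passed in L3.6, and 13 rose and 1 fell in PANC-1 without empty vector replicate 2. SCARB2, CTNS, GLA, TPP1, ATG7 and SQSTM1, which rose there, had windows without any E-box. ATG3, ATP6V0D1 and MCOLN1, not printed above, had an E-box and did not pass the test in either line. LAMP2, CTSB, HEXA and UVRAG, which also rose there, had no window, and a link between E-boxes and K17 was not tested.

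In L3.6, 4 of the 33 genes were lower in wild-type than in knockout cells and 0 were higher (edgeR's quasi-likelihood test with adjusted p under 0.05 over all genes), beside 9.61% of all 13891 genes called, 6.1% lower and 3.51% higher. The 4 were CTNS, CTSB, PSAP and MAP1LC3B, with falls of 1.29-fold to 1.43-fold. The median over the 33 genes was -0.16 on the log2 scale, beside 0.01 over all genes. Of the 33 values 23 were negative, beside 6853 of the 13891 over all genes. At an unadjusted p under 0.05 the count was 10 of 33, beside 3848 of the 13891 genes, which is a similar share. The wild-type and knockout libraries did not overlap for 13 genes, 12 of them lower in wild type and GAA higher. Over all genes 17.9% were lower and 15.3% higher without overlap.

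CTNS encodes cystinosin, the carrier that exports cystine from the lysosome (ENSG00000040531.14, chr17:3636468-3661542, GRCh38). Its level was 30.5, 31.4 and 35.8 CPM in the knockout libraries and 24.5, 20.8 and 23.0 CPM in the wild-type ones. All 3 wild-type libraries lay below all 3 knockout libraries, and the fold change was -0.51 ± 0.11 on the log2 scale (SE, n = 3 and 3; edgeR adjusted p = 0.0242). CTSB, the cysteine protease cathepsin B, had 109.8, 130.1 and 125 CPM in knockout and 97.2, 81.2 and 89.3 CPM in wild type. It fell by 0.44 ± 0.09 on the log2 scale (SE; edgeR adjusted p = 0.0172), again without overlap. PSAP makes prosaposin, the precursor of the saposins that activate sphingolipid hydrolases. Its levels were 114, 119 and 108 CPM in knockout and 90.6, 78.2 and 91.6 CPM in wild type, a difference of -0.39 ± 0.07 (SE; edgeR adjusted p = 0.0155). MAP1LC3B encodes LC3B, an ATG8 protein that marks autophagosome membranes. It had 73.97, 68.2 and 71.4 CPM in knockout and 59.6, 57.6 and 48.7 CPM in wild type, and fell by 0.36 ± 0.09 (SE; edgeR adjusted p = 0.0359).

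Each of these calls depended on single L3.6 libraries. The count of 4 became 0 without knockout replicate 2, 1 without knockout replicate 3, 1 without wild-type replicate 3, 2 without knockout replicate 1 and 2 without wild-type replicate 2 (1 higher and 1 lower), and it became 8 without wild-type replicate 1. Row AC010970.1 took 13.5% and 14.1% of counts in wild-type replicates 2 and 3 and 4.34% to 6.96% in the other L3.6 libraries, and leaving this row out gave 5 genes, all lower. Among other cell type markers, PECAM1 of endothelial cells was 1.40 higher in wild type on the log2 scale (edgeR adjusted p = 0.00468), at 8.24 to 11.5 CPM against 3.41 to 3.74. The 5 endothelial markers summed to 8.78 to 13.0 CPM in wild type and 3.48 to 4.03 in knockout, with TEK at 0 in the knockout libraries. Most of both sums was PECAM1 itself, and CDH5, KDR, TEK and VWF had 0 to 8 counts in any L3.6 library. The 8 macrophage markers summed to 5.09 to 8.24 CPM in wild type and 3.525 to 4.64 in knockout. The 3 of them tested had positive values that did not pass. All 6 epithelial markers had negative values in L3.6, and KRT19 and KRT7 passed the test, as did the squamous markers TP63 and DSC3. The part of these markers in the result was not tested.

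The other 29 genes did not pass the test in L3.6. ATP6V1H, a subunit of the cytosolic part of the proton pump, missed the threshold with the lowest adjusted p of the 29. It had 21.2, 19.7 and 18.1 CPM in knockout and 14.3, 15.0 and 11.6 CPM in wild type, without overlap, a difference of -0.53 ± 0.14 (SE; edgeR adjusted p = 0.0522). LAMP2, a membrane protein that takes part in chaperone-mediated autophagy, had a value of -0.22 ± 0.06 (SE; edgeR adjusted p = 0.0615). GAA, the glucosidase that degrades glycogen in lysosomes, was the one gene with wild type wholly above knockout. Its levels were 50.3, 60.6 and 52.0 CPM in knockout and 75.7, 61.2 and 84.7 CPM in wild type, with 0.45 ± 0.12 on the log2 scale (SE; edgeR adjusted p = 0.0627). SQSTM1, the cargo receptor p62, overlapped between the groups at 414 to 452 CPM in knockout and 349.7 to 435 in wild type.

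In PANC-1 with all 6 libraries, 1 of the 33 genes passed the test, beside 0.644% of 16295 genes (0.583% higher and 0.0614% lower), and it was GABARAPL1, lower with K17. GABARAPL1 is an ATG8 protein of the GABARAP branch, which acts in autophagosome closure and fusion with lysosomes (ENSG00000139112.10, chr12:10212458-10223130, GRCh38). Its counts were 548, 510 and 421 in the empty vector libraries and 130, 111 and 165 in the K17 libraries, or 7.78, 7.49 and 6.60 CPM against 2.11, 1.86 and 2.67 CPM. The K17 libraries all lay below the empty vector ones, empty vector replicate 2 included, and the level was 3.30-fold lower (log2 -1.72 ± 0.20, SE; edgeR adjusted p = 0.0341). Without empty vector replicate 2 the log2 difference was -1.70 ± 0.18 (SE; edgeR adjusted p = 0.00084). With all 6 libraries, leaving out any single library other than empty vector replicate 2 ended the call, and the count over the 33 genes was then 0. Its near copy GABARAPL3 had 0 to 3 counts in any library. In L3.6 the GABARAPL1 groups overlapped, at 2.55 to 3.79 CPM in knockout and 1.91 to 5.53 in wild type.

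**Figure D1:**
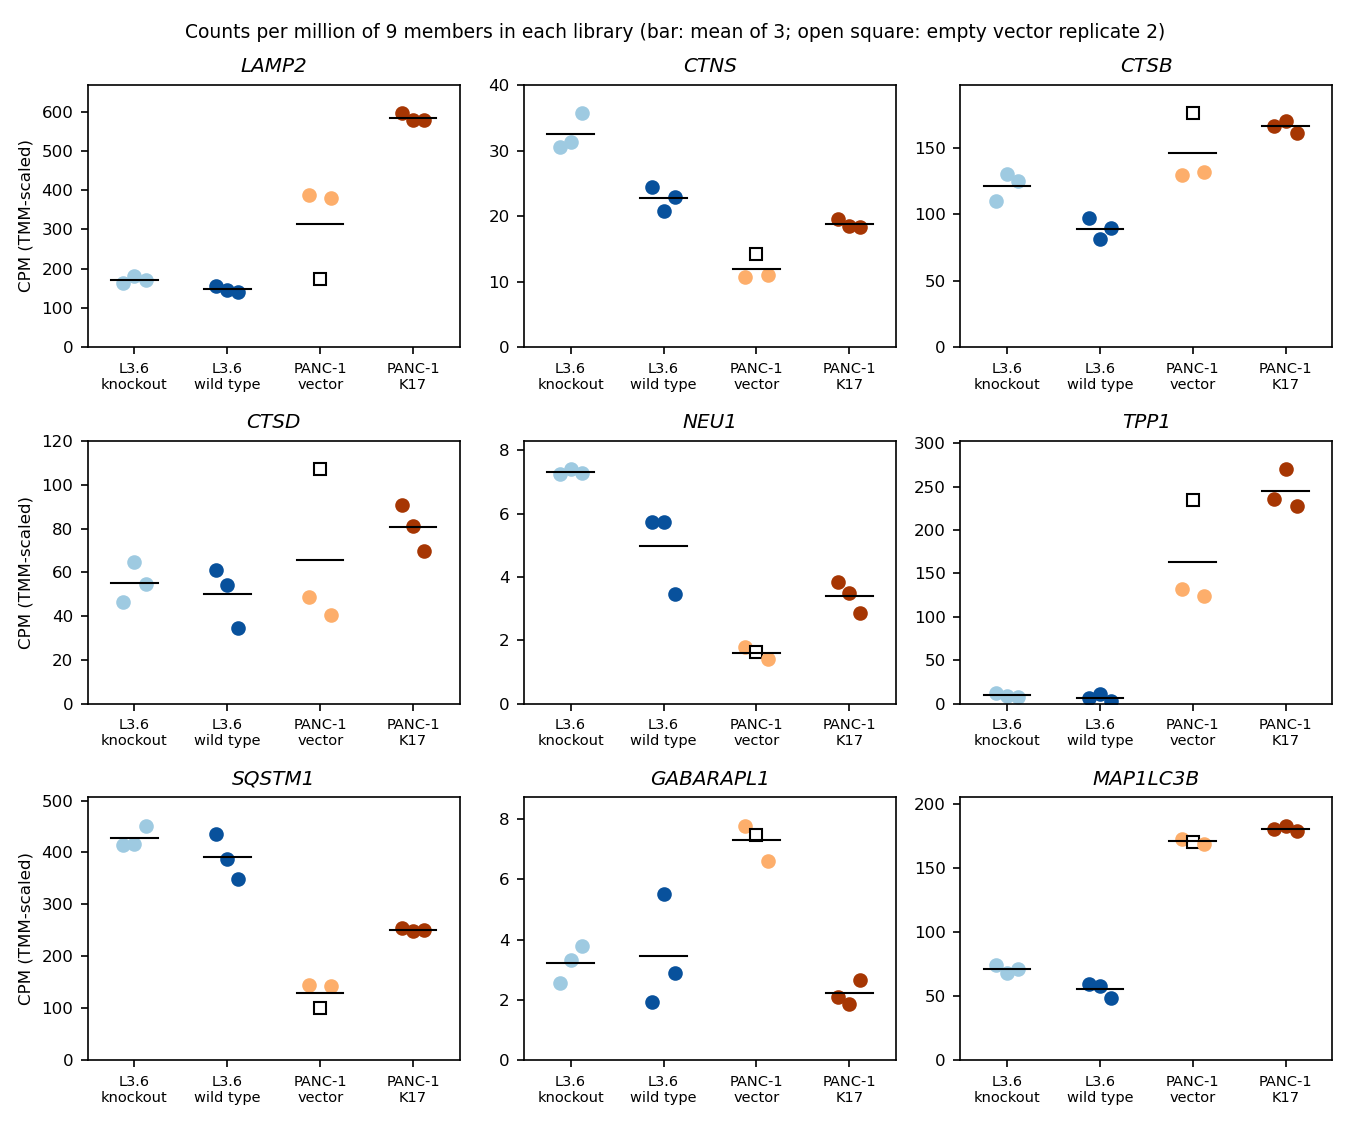
Level of 9 genes in each library (y axis: CPM scaled by TMM factors, from 0; x axis: the 4 human groups, 3 libraries each; bars are group means and the open square is PANC-1 empty vector replicate 2). GABARAPL1 is at 1.86 to 2.67 CPM in the 3 PANC-1 K17 libraries and 6.60 to 7.78 CPM in the empty vector ones, and for CTSB and CTSD the open square lies above all 3 K17 libraries.

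The median over the 33 genes in that fit was 0.16, beside 0.01 over all genes. Of the 33 values 26 were positive, beside 51.17% over all genes. At an unadjusted p under 0.05 there were 7 of the 33 genes, beside 1634 of the 16295. The K17 and empty vector libraries did not overlap for 14 genes, 11 higher with K17 (14.5% of all genes) and TFEB, ULK1 and GABARAPL1 lower (11.1% of all genes). Empty vector replicate 2 departed by more than 1.5-fold from both other empty vector libraries for 11 of the 33 genes. It was below them for LAMP2, SCARB2, ATP6V1A, UVRAG and ATG12, and above them for MCOLN1, CTSD, GAA, TPP1, ATP6V0D1 and GABARAPL2. For ATP6V1A, a catalytic subunit of the proton pump, that library had 2 counts where the other empty vector libraries had 184 and 158.

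Without empty vector replicate 2, 13 of the 33 genes were higher with K17 and GABARAPL1 was lower, beside 20.7% of 16640 genes called, 11.4% higher and 9.25% lower. The median over the 33 genes was 0.20, beside 0.01 over all genes. The groups did not overlap for 16 genes higher with K17 (25.3% of all genes) and 4 lower (22.9%). The genes that rose were 7 of the 10 luminal hydrolases, 3 of the 5 membrane proteins, 1 of the 4 genes of initiation and nucleation, 1 of the 4 conjugation enzymes and SQSTM1. None of the 4 proton pump genes and neither transcription factor passed the test. Rises ran from 1.11-fold for UVRAG to 2.12-fold for NEU1. For 8 of the 13 genes, namely LAMP2, SCARB2, CTNS, HEXA, NEU1, UVRAG, ATG7 and SQSTM1, the K17 libraries also lay above all 3 empty vector libraries. For the other 5, CTSB, CTSD, GLA, GAA and TPP1, empty vector replicate 2 lay within or above the K17 range. The count of 14 calls became 9 (8 higher and 1 lower) without empty vector replicate 3 as well, and 10 (9 higher) without empty vector replicate 1. No single K17 library moved it outside 13 to 15.

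**Figure D2:**
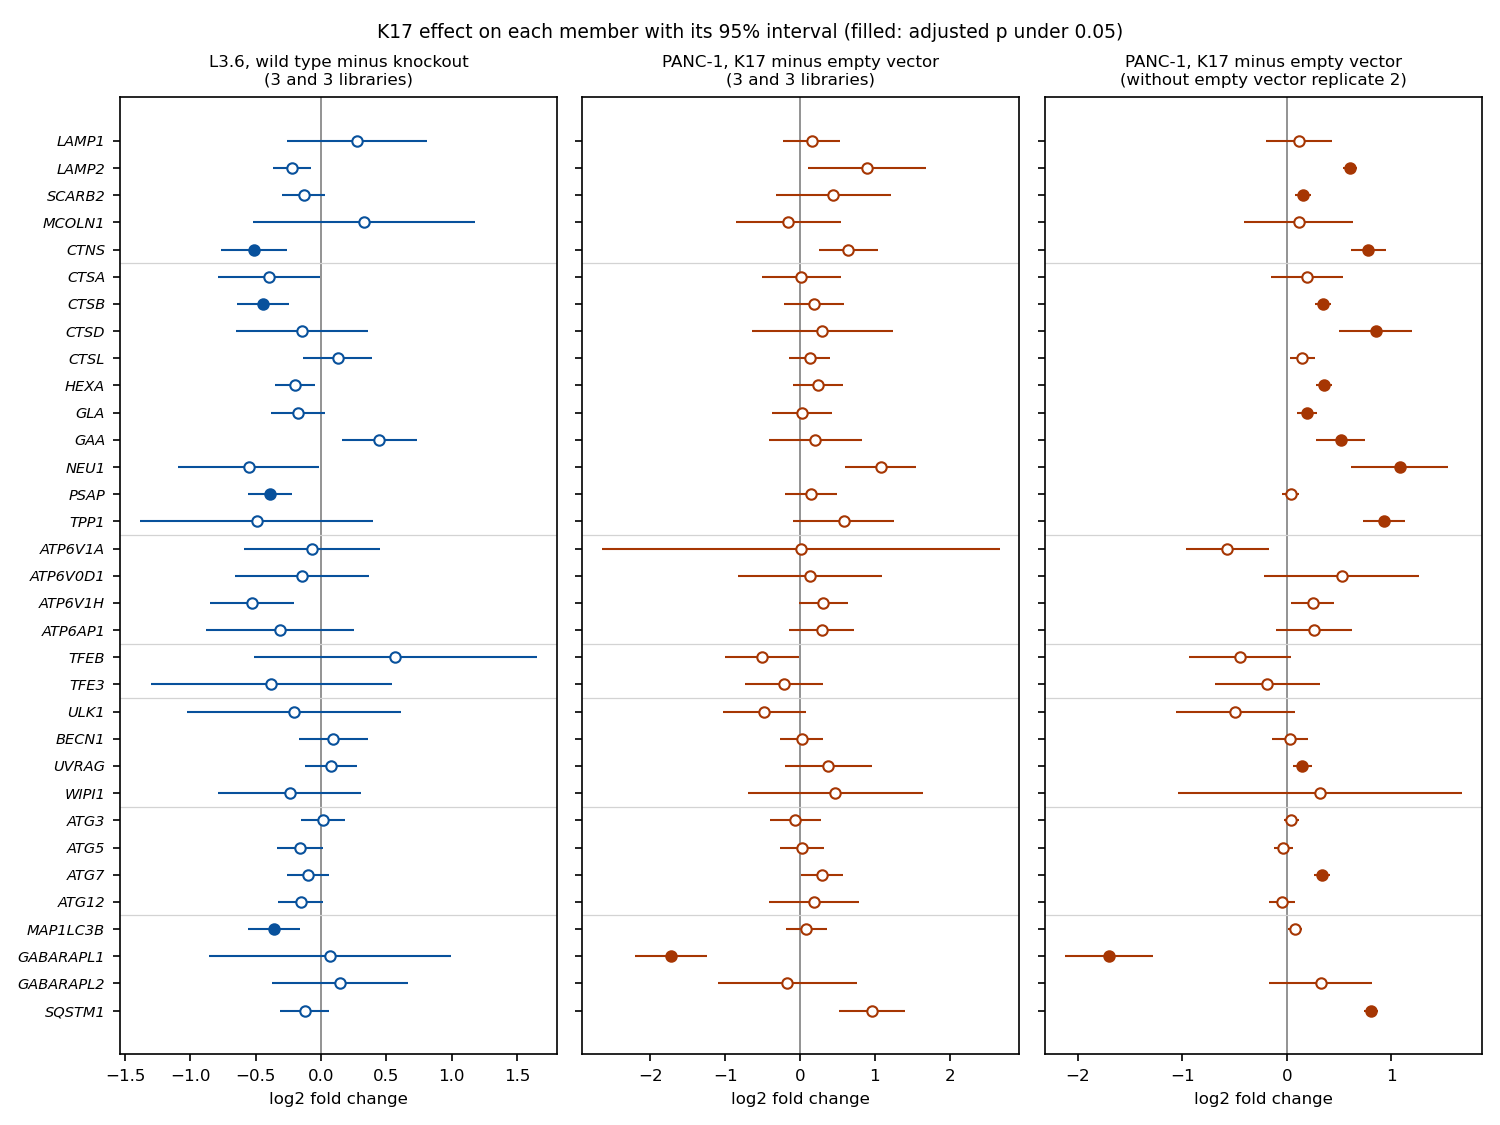
Log2 fold change of each of the 33 genes (y axis, grouped by role) in L3.6, in PANC-1 with all 6 libraries and in PANC-1 without empty vector replicate 2 (x axes; points are estimates, lines 95% intervals, filled points have an adjusted p under 0.05). Filled points number 4, 1 and 14, and the 10 hydrolases and activator all lie above 0 in both PANC-1 panels.

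Among membrane proteins, LAMP2 had 388, 173 and 379 CPM in empty vector replicates 1 to 3 and 598, 578 and 578 CPM in the K17 libraries. The gap to the nearest empty vector library was wide relative to the spread within the K17 group, and without empty vector replicate 2 the rise was 0.60 ± 0.03 (SE; edgeR adjusted p = 3.03e-05). With all 6 libraries it was 0.90 ± 0.32 (SE; edgeR adjusted p = 0.428). CTNS, lower with K17 in L3.6, had 10.8, 14.2 and 11.0 CPM with empty vector and 19.5, 18.5 and 18.3 CPM with K17. All K17 libraries lay above all empty vector libraries. The rise was 0.78 ± 0.07 without empty vector replicate 2 (SE; edgeR adjusted p = 0.000497), and the value was 0.65 ± 0.16 with it (SE; edgeR adjusted p = 0.201). SCARB2, the receptor LIMP-2 that carries glucocerebrosidase to lysosomes, had 214, 96.5 and 213 CPM with empty vector and 242, 231 and 242 CPM with K17. Its rise of 0.15 ± 0.03 without empty vector replicate 2 (SE; edgeR adjusted p = 0.014) was small, the value over all 6 was 0.45 ± 0.32 (SE; edgeR adjusted p = 0.67), and it lost the call without empty vector replicate 1 or 3 and under upper-quartile scaling. LAMP1 and the calcium channel MCOLN1 did not pass the test, with overlapping groups at 3.87 to 4.95 CPM and 1.38 to 2.61 CPM.

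NEU1, the lysosomal sialidase, had the largest rise of the 33 genes (ENSG00000204386.10, chr6:31857659-31862906, GRCh38). Its counts were 126, 111 and 89 with empty vector and 236, 208 and 177 with K17, or 1.79, 1.63 and 1.40 CPM against 3.83, 3.48 and 2.86 CPM. Every K17 library was above every empty vector library, and the rise of 1.08 ± 0.20 without empty vector replicate 2 (SE; edgeR adjusted p = 0.00898) was matched by 1.08 ± 0.19 with it (SE; edgeR adjusted p = 0.0911). It lost the call without empty vector replicate 3, at an adjusted p of 0.0632 in edgeR. TPP1, a tripeptidyl peptidase, had 132, 234 and 124 CPM with empty vector and 236, 270.2 and 228 CPM with K17. Empty vector replicate 2 fell inside the K17 range, and the rise without it was 0.93 ± 0.08 (SE; edgeR adjusted p = 0.000985), beside a value of 0.58 ± 0.28 with it (SE; edgeR adjusted p = 0.565). CTSD, the aspartic protease cathepsin D, had 48.7, 107 and 40.5 CPM with empty vector and 90.9, 81.2 and 69.8 CPM with K17. Here empty vector replicate 2 was the highest of all 6 libraries. Without it the rise was 0.85 ± 0.14 (SE; edgeR adjusted p = 0.0113), and the value was 0.30 ± 0.39 with it (SE; edgeR adjusted p = 0.809). CTSD shares 41.7% of its exon bases with AC068580.4 on the same strand, a row of 61 to 209 counts. The call was also lost without empty vector replicate 3 and with no filter on low counts.

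GAA had 5.00, 8.95 and 5.36 CPM with empty vector and 7.43, 7.57 and 7.30 CPM with K17. Empty vector replicate 2 was again the highest library, and without it the rise was 0.52 ± 0.10 (SE; edgeR adjusted p = 0.0113). This call was lost without empty vector replicate 1 and with a block for replicate number. Over all 6 libraries GAA was at 0.21 (edgeR adjusted p = 0.801), CTSB at 0.19 (0.724), HEXA at 0.25 (0.616) and GLA at 0.03 (0.952), none past the test. CTSB had 129, 176 and 132 CPM with empty vector and 167, 170.5 and 161 CPM with K17, a rise of 0.35 ± 0.03 without empty vector replicate 2 (SE; edgeR adjusted p = 0.000526). HEXA, the alpha subunit of the hexosaminidase that degrades GM2 ganglioside, separated the groups also with that library. Its levels were 71.5, 88.9 and 71.6 CPM with empty vector and 92.5, 92.5 and 90.3 CPM with K17, a rise of 0.36 ± 0.03 without empty vector replicate 2 (SE; edgeR adjusted p = 0.000449). GLA, the alpha-galactosidase, had 48.0, 66.3 and 48.6 CPM with empty vector and 56.3, 56.5 and 53.8 CPM with K17. It rose by 0.20 ± 0.04 without empty vector replicate 2 (SE; edgeR adjusted p = 0.0139). That call was lost without empty vector replicate 1 or 3 and with a block for replicate number. The cysteine protease CTSL, the serine carboxypeptidase CTSA and PSAP did not pass the test, with values of 0.15, 0.20 and 0.04 without empty vector replicate 2 and 0.13, 0.02 and 0.15 with it. CTSL stood at 65.5 to 69.7 CPM with empty vector and 69.7 to 77.5 CPM with K17, narrowly without overlap, while CTSA and PSAP overlapped. PSAP, which fell in L3.6, stood at 141, 111 and 140.1 CPM with empty vector and 141, 149.5 and 144 CPM with K17.

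**Figure D3:**
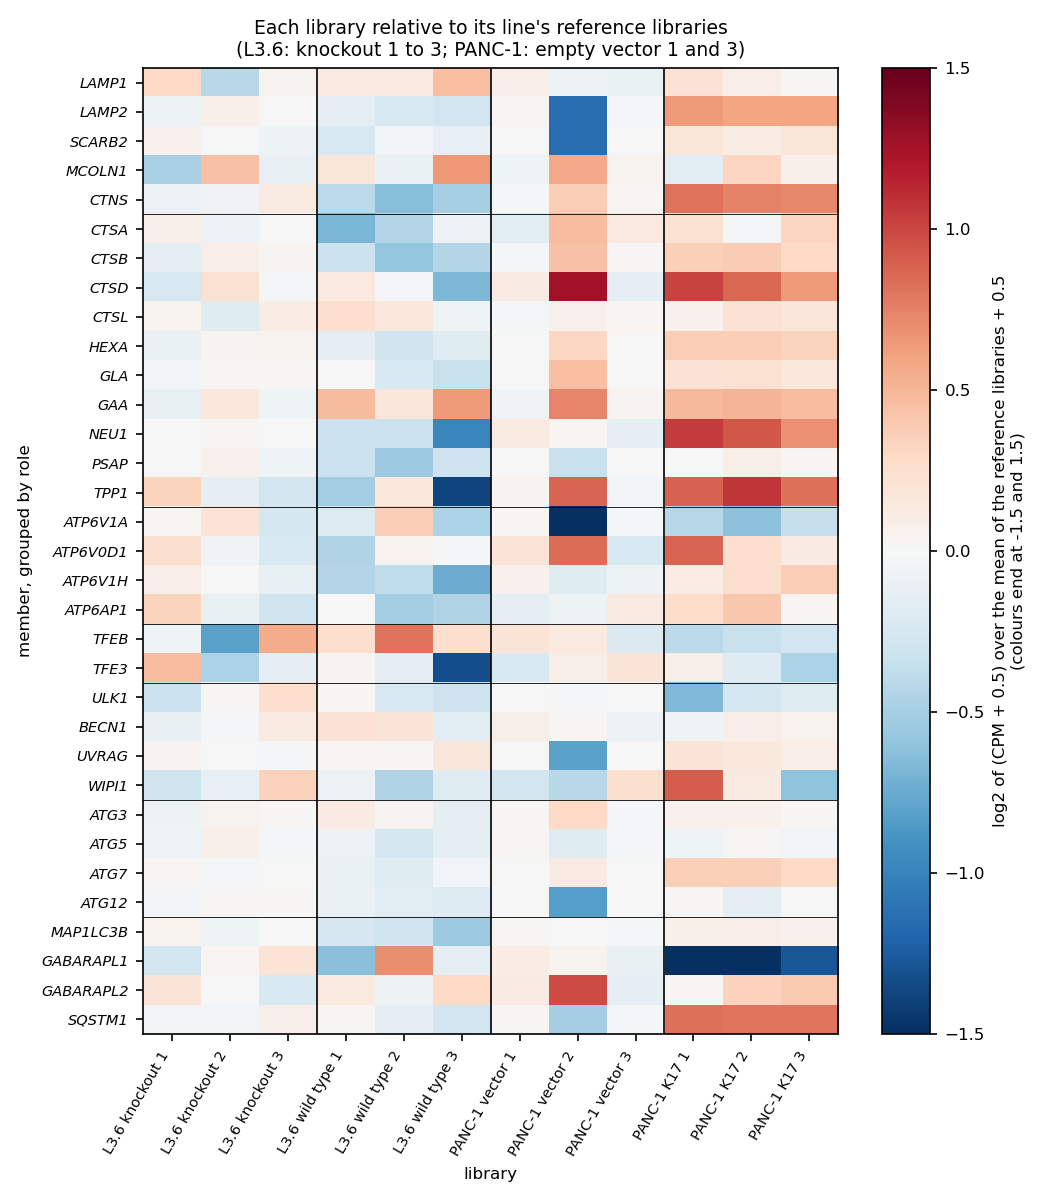
Log2 level of the 33 genes (y axis, by role) in each of the 12 libraries (x axis) relative to the mean of the 3 L3.6 knockout libraries or of PANC-1 empty vector replicates 1 and 3, with 0.5 CPM added; colours end at -1.5 and 1.5. The column of PANC-1 empty vector replicate 2 differs from its neighbours on both sides of 0, with LAMP2, SCARB2 and ATP6V1A low and CTSD and GABARAPL2 high.

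The proton pump genes gave no call within either line. In PANC-1, ATP6V1H had 41.5, 34.9 and 37.6 CPM with empty vector and 42.9, 47.4 and 51.1 CPM with K17, without overlap, and a value of 0.25 ± 0.09 without empty vector replicate 2 (SE; edgeR adjusted p = 0.0978). ATP6V1A had 2.61, 0.0294 and 2.48 CPM with empty vector and 1.77, 1.49 and 1.91 CPM with K17. Its value was 0.01 ± 1.09 with all 6 libraries and -0.57 ± 0.17 without empty vector replicate 2 (SE; edgeR adjusted p = 0.0557). ATP6V0D1, of the membrane part of the pump, and the accessory subunit ATP6AP1 overlapped between the groups.

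TFEB and TFE3, the transcription factors of the lysosomal gene network, were below 0 in PANC-1 and did not pass the test. TFEB had 163, 152 and 103 counts with empty vector and 84, 87 and 94 with K17, or 2.31, 2.23 and 1.61 CPM against 1.36, 1.46 and 1.52 CPM. All K17 libraries lay below all empty vector libraries, with a value of -0.45 ± 0.21 without empty vector replicate 2 (SE; edgeR adjusted p = 0.189). TFE3 overlapped at 12.0, 15.2 and 16.4 CPM with empty vector and 15.2, 12.3 and 10.1 CPM with K17. In L3.6, TFEB had 10 to 34 counts a library, and its interval of -0.52 to 1.65 on the log2 scale shows how little that depth resolves.

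Of the genes that start autophagy, UVRAG, a partner of Beclin 1 in the lipid kinase complex, had 62.2, 35.6 and 63.1 CPM with empty vector and 71.7, 70.1 and 67.2 CPM with K17. Its rise of 0.15 ± 0.04 without empty vector replicate 2 (SE; edgeR adjusted p = 0.0368) was the smallest past the test, and over all 6 the value was 0.38 ± 0.24 (SE; edgeR adjusted p = 0.649). It lost the call in 8 of 14 alternatives. The kinase ULK1, Beclin 1 (BECN1) and the membrane-binding protein WIPI1 did not pass. ULK1 had 1.60, 1.56 and 1.58 CPM with empty vector and 0.827, 1.24 and 1.34 CPM with K17, all lower. Its value was -0.49 ± 0.24 without empty vector replicate 2 (SE; edgeR adjusted p = 0.219). BECN1 differed little, at 54.9 to 61.8 CPM and 56.0 to 62.5 CPM, with an interval of -0.14 to 0.20 for the log2 fold change.

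ATG7, the enzyme that activates both ubiquitin-like systems of autophagy, was the one conjugation gene past the test in PANC-1. It had 98.5, 108 and 98.7 CPM with empty vector and 127, 126 and 121 CPM with K17, and its rise was 0.33 ± 0.03 without empty vector replicate 2 (SE; edgeR adjusted p = 0.000553). The groups also separated with that library, at 0.29 ± 0.12 (SE; edgeR adjusted p = 0.474). VGLL4 covers 18.1% of the ATG7 exon bases on the opposite strand, with 131 to 494 counts a library. ATG3, ATG5 and ATG12, which carry and anchor the ATG8 proteins, had values of 0.04, -0.03 and -0.04 without empty vector replicate 2, and -0.06, 0.03 and 0.19 with it, and none passed. Without that library their 95% intervals lay between -0.17 and 0.11.

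SQSTM1 had 144, 100.2 and 142 CPM with empty vector and 254, 249 and 250.4 CPM with K17 (ENSG00000161011.19, chr5:179806398-179838078, GRCh38). The K17 libraries lay close together and above all empty vector libraries. Its rise of 0.81 ± 0.03 without empty vector replicate 2 (SE; edgeR adjusted p = 1.02e-05) had the lowest adjusted p of the 33 genes, and the value was 0.96 ± 0.18 with all 6 libraries (SE; edgeR adjusted p = 0.0993). MRNIP covers 20.7% of its exon bases on the opposite strand, at 234 to 992 counts a library. LC3B, lower in L3.6, had 173, 170.1 and 169 CPM with empty vector and 180.5, 183 and 179 CPM with K17, without overlap. Its value of 0.08 ± 0.03 without empty vector replicate 2 did not pass (SE; edgeR adjusted p = 0.11). GABARAPL2, another protein of the GABARAP branch, overlapped, with a value of -0.17 over all 6 libraries and 0.32 without empty vector replicate 2.

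**Figure D4:**
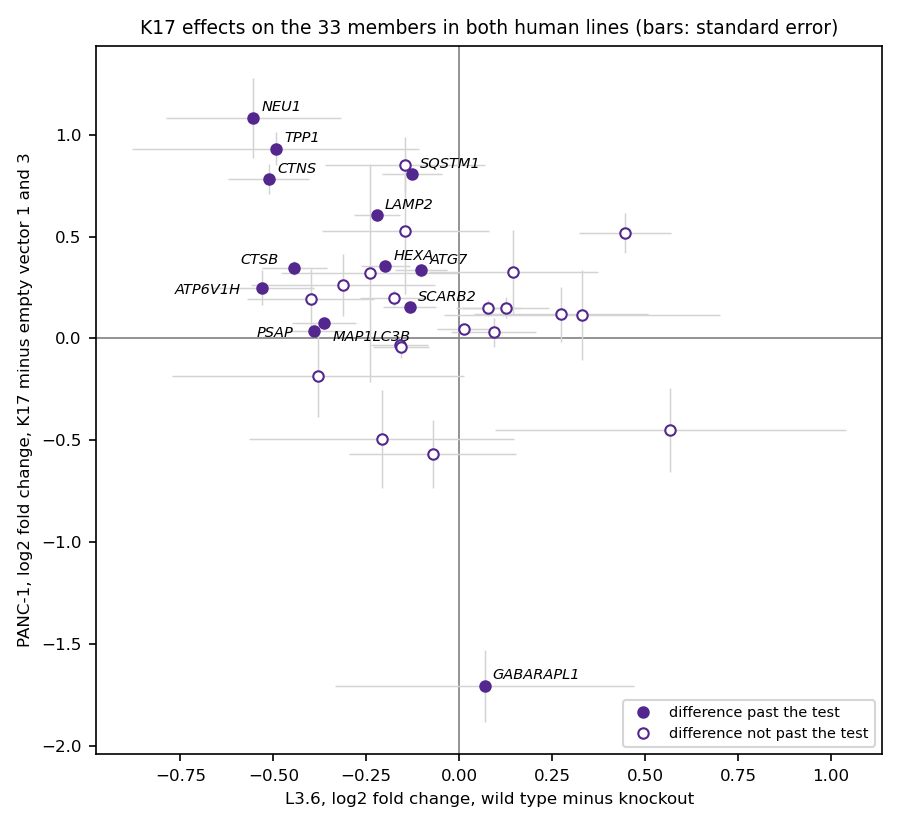
Log2 fold change of the 33 genes in L3.6 (x axis, wild type minus knockout) and in PANC-1 without empty vector replicate 2 (y axis, K17 minus empty vector), with standard errors; filled, named points are the 13 genes whose effects differ between the lines in the test of the difference. Of the points, 18 lie to the upper left, with NEU1 at 1.08, TPP1 at 0.93 and CTSD at 0.85 highest on the y axis, and GABARAPL1 stands alone at the bottom.

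An interaction term asked whether the K17 effect differed between the lines. K17 was changed by knockout in L3.6 and by overexpression in PANC-1, so line and kind of change cannot be told apart. KRT17 itself had a difference of -10.5 on the log2 scale over all 12 libraries. With all 12 libraries, the effect was lower in L3.6 than in PANC-1 for 3 of the 33 genes, beside 1.54% of 17583 genes called (0.284% higher and 1.25% lower). The 3 were SQSTM1 at -1.06 ± 0.18 on the log2 scale (SE; edgeR adjusted p = 0.0147), CTNS at -1.12 ± 0.23 (SE; edgeR adjusted p = 0.0385) and NEU1 at -1.59 ± 0.33 (SE; edgeR adjusted p = 0.0385). These are a receptor, a carrier and a hydrolase, and for CTNS the effects within the lines had opposite directions past their tests once empty vector replicate 2 was left out. The median difference over the 33 genes was -0.33, beside 0.09 over all genes. The count of 3 became 0 without L3.6 knockout replicate 2 or 3, wild-type replicate 2 or 3, or PANC-1 K17 replicate 1 or 2. It became 1 without L3.6 knockout replicate 1 or PANC-1 K17 replicate 3. Without empty vector replicate 2 alone it was 13, beside 11.5% of 15758 genes (2.82% higher and 8.72% lower).

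Of those 13 differences, 12 were lower in L3.6, in 5 hydrolases or their activator, 3 membrane proteins, ATP6V1H, ATG7, LC3B and SQSTM1, and GABARAPL1 was higher. The median was -0.45, beside -0.05 over all genes. The count became 6 when empty vector replicate 3 was left out too and 8 when replicate 1 was. CTSB was lower with high K17 in L3.6 and higher in PANC-1, each past its own test, as CTNS was. PSAP and LC3B passed in L3.6 and in the test of the difference but not within PANC-1. In sign alone, 18 of the 33 genes were negative in L3.6 and positive in PANC-1 without empty vector replicate 2, or 54.55%, beside 24.97% of the 13322 genes tested in both lines. With all 6 PANC-1 libraries it was 21 genes, or 63.64%, beside 24.32% of 13263 genes. The lines share no library, and the 33 genes are not independent of each other.

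The wider pathway was read from 164 further genes in 6 lists. In L3.6, 2 were higher and 7 lower of 144 tested, with a median of -0.08. That is 6.25% called, below the 9.61% of all genes, so the genes named next are single calls and not a result about the lists. CTSH, an aminopeptidase of the cathepsin family, rose from 12.8, 11.9 and 10.5 CPM in knockout to 21.5, 23.1 and 22.9 CPM in wild type (0.94 ± 0.12, SE; edgeR adjusted p = 0.00306), opposite in direction to cathepsin B. CALCOCO2, the receptor NDP52, also rose, by 0.25. GABARAP, the founding protein of its ATG8 branch, fell by 0.73, from 116, 129.8 and 117 CPM to 77.0, 73.1 and 69.2 CPM, without overlap. ULK2 fell by 0.88, the pump subunit ATP6V0E1 by 0.59, the receptor optineurin (OPTN) by 0.54, the tetraspanin CD63 by 0.33, the mTORC1 inhibitor TSC2 by 0.30 and WIPI2 by 0.26.

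In PANC-1 with all 6 libraries, 5 of 155 tested were higher and 0 lower, with a median of 0.13, beside 0.644% of all genes called, and these calls stood with empty vector replicate 2 in the fit. RETREG1, a receptor that delivers endoplasmic reticulum to autophagosomes, had 7.85, 9.29 and 7.76 CPM with empty vector and 27.1, 28.6 and 27.0 CPM with K17. It rose by 1.73 ± 0.14 (SE; edgeR adjusted p = 0.0152). ASAH1, the lysosomal acid ceramidase, rose from 37.9, 28.4 and 38.1 CPM to 82.0, 82.8 and 82.3 CPM (1.24 ± 0.15, SE; edgeR adjusted p = 0.0393). The other 3 were ion channels or exchangers of the endolysosomal membrane, the calcium channel MCOLN3 at 1.41, the chloride exchanger CLCN7 at 1.07 and the cation channel TPCN1 at 0.92. MCOLN3 stood at 9.27, 7.53 and 7.53 CPM with empty vector and 22.2, 21.0 and 21.3 CPM with K17, while its relative MCOLN1 did not pass. For each of the 5 the K17 libraries lay above all 3 empty vector libraries.

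Without empty vector replicate 2, 50 of 158 tested were higher and 8 lower, with a median of 0.17, beside 11.4% of all genes called higher and 9.25% lower. By list, the hydrolases and other luminal proteins gave 13 higher and 0 lower of 39, membrane and sorting genes 9 and 1 of 27, the proton pump 5 and 0 of 15, and the autophagy core 4 and 1 of 35, or 14.29% called, below the 20.7% of all genes. Receptors gave 7 and 3 of 18, and the control of mTORC1 and of the TFEB family 12 and 3 of 24. The largest luminal rises were CTSS at 2.26, NPC2 at 1.16, ASAH1 at 1.11 and IDS at 1.10. CTSS, the protease cathepsin S, was near the floor of the data at 0.341 to 0.631 CPM with empty vector and 1.47 to 2.22 CPM with K17. NPC2, which hands cholesterol to NPC1, had 56.0, 92.5 and 53.0 CPM with empty vector and 121, 126 and 119 CPM with K17, above all empty vector libraries. Of the membrane proteins TMEM192 rose by 1.03, and of the pump subunits ATP6V0A4 by 1.13 from a low level, ATP6V0E2 by 0.71, ATP6V0A1 by 0.51 and ATP6V1C1 by 0.34. In the autophagy core ZFYVE1 rose by 0.63, TMEM41B by 0.49 and GABARAP by 0.31, and VMP1 fell by 0.20. GABARAP turned with empty vector replicate 2: its levels were 53.6, 97.2 and 53.8 CPM with empty vector and 66.4, 68.7 and 65.0 CPM with K17, and over all 6 libraries its value was -0.03 ± 0.26 (SE; edgeR adjusted p = 0.97). VMP1 was at -0.06 over all 6. Receptors that rose were RETREG1 by 1.82, OPTN by 0.70, TOLLIP by 0.65 and CCPG1 by 0.32. FNIP1, a partner of folliculin in the control of TFEB and TFE3, rose by 0.61, the Rag GTPase RRAGB by 0.55, and MLST8 and LAMTOR4 each by 0.47. Of the genes named from this fit, RETREG1 and ASAH1 also passed the test over all 6 libraries. Over those 6, LAMTOR4 was at 0.00, MLST8 at 0.17 and ATP6V0E2 at 0.29, with overlapping groups. Of the 4 fibroblast markers tested, 3 had positive values that did not pass, and the list's median was 0.30. The fourth, THY1, was 0.89 lower with K17 in this fit, at 7.01 to 8.80 CPM against 14.7 to 25.9 CPM in all empty vector libraries, while DSC3 of the squamous markers rose by 2.24 and KRT8 of the epithelial ones by 0.16, although KRT8 was at -0.18 over all 6 libraries. The part of these markers in the results was not tested.

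**Figure D5:**
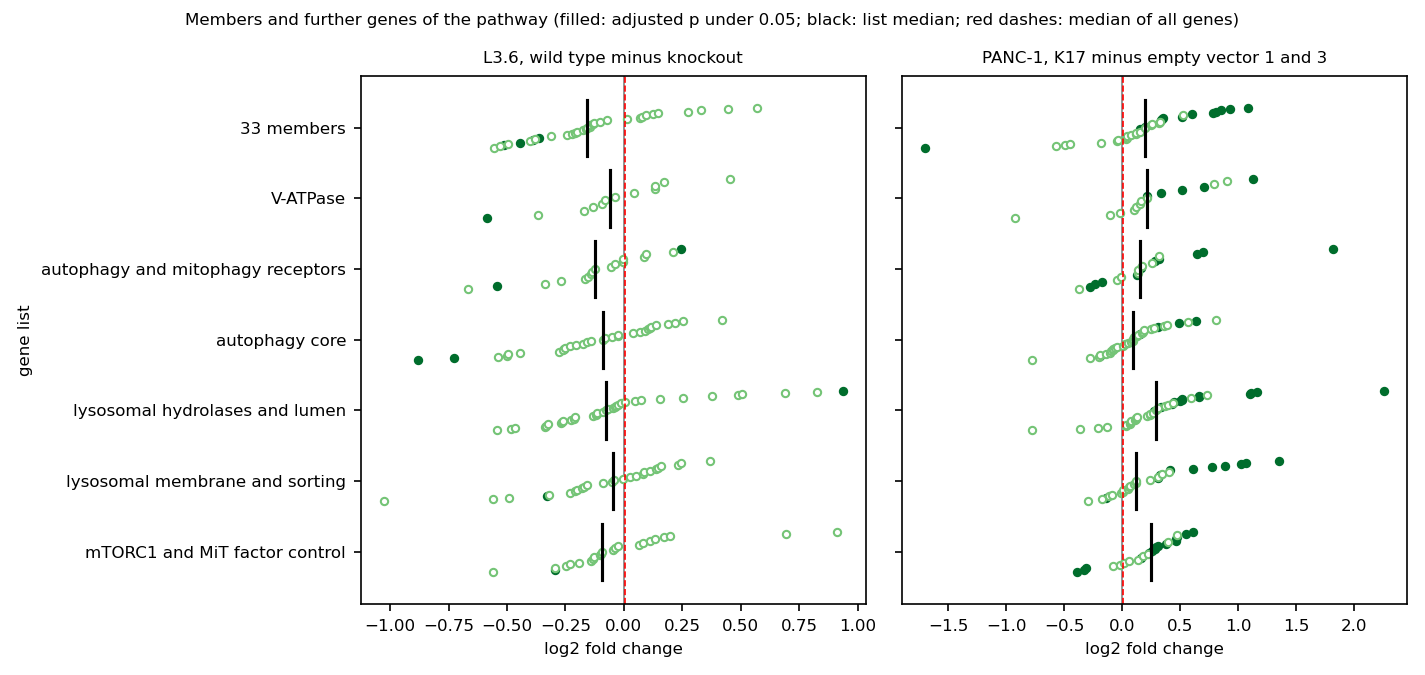
Log2 fold change (x axes) of the 33 genes and of the 6 lists of further pathway genes (y axis) in L3.6 and in PANC-1 without empty vector replicate 2; each point is a gene, filled where the adjusted p is under 0.05, black bars are list medians and the red dashes the median of all genes. In L3.6 all 7 medians lie below 0, and in PANC-1 all 7 lie above it.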

How the data were processed

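Counts per gene were deposited by the authors for each library, and column 2 of the human tables, whole numbers, was used. Libraries were made with a TruSeq kit from TRIzol-extracted RNA per the labels' protocols. Per the submitters' processing notes, GRCh38 was the build, and kallisto 0.46.2, STAR 2.7.3a and bcl2fastq 1.8.4 are listed without roles. How reads were assigned to genes, and with which strand setting, is not given in the sources used here. Of 34505 gene identifiers, 34474 were named through GENCODE 29.

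Groups came from the labels. Within each line, edgeR 4.0.16 (R 4.3.3) with TMM factors, its default low-count filter and robust quasi-likelihood tests was fitted to all genes, and p-values were adjusted by Benjamini-Hochberg across every gene that passed the filter. The interaction was fitted over both lines. Printed CPM values are scaled by TMM factors, and intervals are at 95%. The calculations were tested on simulated data. DESeq2 1.42.0, limma 3.58.1, other scalings and filters, and fits without each library were alternatives. The alternatives to the fits without PANC-1 empty vector replicate 2 were chosen after seeing the data.

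The 33 genes and all lists were chosen with earlier results of these data known. Genes named with all their values passed a test within a line or between lines, and up to 4 of the largest changes were named per wider list. ATP6V1A, TFEB, TFE3, ULK1 and BECN1 were added to show their role groups, some of them after their values were seen. CTSO, SESN2 and DSG3 were not analysed here.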

Additional observations from a re-analysis of the deposited data

Results flagged for a closer look

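The K17 effect differed between L3.6 and PANC-1, by a test of the difference itself, for 3 of the 33 genes over all 12 libraries and for 13 without PANC-1 empty vector replicate 2. Values are the L3.6 effect minus the PANC-1 effect on the log2 scale, from edgeR. Line and kind of K17 change, knockout or overexpression, cannot be told apart in them. Over all 12 libraries they were -1.12 for CTNS, -1.59 for NEU1 and -1.06 for SQSTM1.

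Without empty vector replicate 2, CTNS was at -1.37 (adjusted p = 0.000267), NEU1 at -1.71 (adjusted p = 0.00756) and SQSTM1 at -1.01 (adjusted p = 0.000796). Among the other membrane proteins LAMP2 was at -0.90 and SCARB2 at -0.36. Among hydrolases and their activator TPP1 was at -1.52, CTSB at -0.86, HEXA at -0.63 and PSAP at -0.50. The pump subunit ATP6V1H was at -0.85, ATG7 at -0.51 and MAP1LC3B at -0.51. GABARAPL1, at 1.67 (adjusted p = 0.0395), was the only one of the 13 with a positive difference, and no positive call was left without any 1 of L3.6 knockout replicate 1 or 2, wild-type replicate 2, PANC-1 K17 replicate 1 or 2, or empty vector replicate 1 or 3.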

How the results depend on the processing

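Among the 33 genes, none past a test within a line or the 12-library test of the difference changed direction under its alternatives. The 13 calls of the difference without empty vector replicate 2 were not followed gene by gene. ATP6V1H passed only that test. Leaving out empty vector replicate 2 did turn the sign of MCOLN1, ATP6V1A, ATG3, ATG5, ATG12 and GABARAPL2 in PANC-1, none past the test in either fit, and of GABARAP in the wider lists. For the 33 genes in L3.6 (4 calls) the count was 0 in 1 fit of the 4 groups, 7 with DESeq2 and 7 with limma-voom quality weights, and 0 to 8 without single libraries. Over all genes (1335) these were 204 in 1 fit and 2288 with quality weights, and 574 to 2493 without single libraries. In PANC-1 (1 of the 33 genes, 105 of all genes) 1 fit gave 2 and 363, DESeq2 4 and 595, quality weights 12 and 3040, and leaving out single libraries 0 to 14 and 0 to 3442. In PANC-1 without empty vector replicate 2 (14 and 3442), leaving out another library gave 9 to 15 and 2053 to 2837. For the difference (3 and 270), DESeq2 gave 8 and 783, quality weights 14 and 2796, and single libraries left out 0 to 13 and 138 to 1819. For the difference without that library (13 and 1819), quality weights gave 3672 of all genes, and leaving out another library 6 to 14 and 826 to 3105. The causes were not tested.

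The main fits did not pair libraries by replicate number. Same-numbered libraries correlated at -0.14 to 0.01 in L3.6 and 0.04 to 0.15 in PANC-1, as deviations from group means. Differently numbered ones correlated at -0.10 to 0.14 in L3.6 and -0.14 to 0.10 in PANC-1. With 3 libraries a group, these values cannot decide whether the numbers pair libraries. With a replicate block the counts were 0 and 665 in L3.6, 0 and 0 in PANC-1, 11 and 2252 without empty vector replicate 2, 0 and 70 for the difference, and 4 and 550 for the difference without that library.

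Upper-quartile scaling changed the split of calls over all genes to 639 higher and 706 lower in L3.6 (488 and 847 with TMM), 1549 and 2193 in PANC-1 without empty vector replicate 2 (1902 and 1540), and 1301 and 1204 for the difference without it (445 and 1374). There the median of all genes moved from -0.05 to 0.11 and that of the 33 genes from -0.45 to -0.29. Of the named genes' alternatives, 41 kept and 23 lost the call in L3.6, 10 and 6 in PANC-1, 177 and 19 without empty vector replicate 2, and 37 and 26 for the difference. In L3.6, depth limits what can be said of TFEB, ULK1 and GABARAPL1. Counts there were also low for NEU1, at 41 to 103 a library, and for TPP1, at 39 to 155. Neither passed the test within L3.6, so their differences between the lines rest on thin L3.6 values.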
